A study of Mus musculus with 3 samples.

Results

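The 36 genes described here are interferon response genes, a set fixed by symbol: 35 of the symbols have a row among the 32285 genes of the deposited matrices, and Mx2 was not analysed here. Mouse bone marrow from femora, tibiae, hips and spines gave 3 single-cell RNA libraries, 1 for each sorted population: LSK, LK and TBM (total bone marrow). LSK and LK are the usual names for lineage-negative marrow cells that carry Kit with or without Sca-1, the gates that hold stem cells and multipotent progenitors (LSK) and mainly committed myeloid and erythroid progenitors (LK). Lineage-negative cells were enriched with antibodies that removed cells with lymphoid (CD5, CD8a, CD45R), myeloid (CD11b, Ly-6C, Ly-6G) or erythroid (Ter119) markers. No genotype, treatment, strain, age, sex or number of mice is given in the sources used here, and no group is labelled as treated with interferon. Nor do these sources say whether TBM was depleted of lineage cells, or whether Sca-1 positive cells were kept out of LK. After filtering, 1067 LSK, 3461 LK and 4217 TBM cells remained, with 11836820, 49936180 and 21958140 UMIs (unique molecular identifiers, each standing for 1 captured RNA molecule) and a median of 9688, 13683 and 3347 UMIs a cell. Each group is 1 library, so differences between groups have no replicate check and no test was made. All intervals below are 95% intervals that cover counting error only.

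The gate genes followed the labels. Ly6a, which encodes Sca-1 and is itself known to be induced by interferon, stood at 101 CPM (UMIs of a gene for every 1000000 UMIs of the library) in LSK, 7.75 in LK and 30.9 in TBM. Kit stood at 81.3, 34.4 and 7.61 CPM. Libraries shared 6 (LSK and LK), 26 (LK and TBM) and 6 (LSK and TBM) cell barcodes, and each library's cells were counted separately. In TBM the neutrophil gene S100a8 had a UMI in 99.2% and the globin gene Hbb-bs in 96.9% of cells. Whether RNA released from broken cells (free RNA) gave these shares was not tested.

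Interferons are secreted proteins that warn cells of infection. Type I interferons signal through the receptor made of Ifnar1 and Ifnar2 to a complex that holds Stat2 and Irf9 and binds the interferon-stimulated response element, and interferon gamma signals through Ifngr1 and Ifngr2 and acts at the gamma-activated site. The Ifit and Oas genes are classic targets of the type I complex and encode proteins that bind viral RNA or sense it. The immunity-related and guanylate-binding GTPases (Ifi47, Igtp, Iigp1, Irgm1, Irgm2, Gbp2 and Gbp7) coat or disrupt the vacuoles of intracellular pathogens and are strong targets of interferon gamma. In marrow, interferons are known to drive resting stem cells into cycle, and stem cells are known to hold part of this gene set at a baseline level.

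Promoter sequence is shown for the Oas genes and the GTPases, because the 2 families are set against each other below, and for Isg15 and Rsad2, which the cell classes turned on and which were added after their values had been seen. The Oas genes and GTPases are the 3 of each family with the most UMIs that have an entry in the RefSeq promoter table (build GRCm38.p6). Each line gives the 150 bases before the start of transcription, 5′ to 3′ in the direction of the gene. Capitals mark matches to GAAANNGAAA or its reverse complement TTTCNNTTTC (like the response element), or to TTCNNNGAA (like the gamma-activated site, which is its own reverse complement); matches that overlap run together. The windows lie at chr5:120907526-120907675 on the minus strand (Oas1a), chr5:114896784-114896933 plus (Oasl2), chr5:120777660-120777809 minus (Oas3), chr11:49076437-49076586 plus (Ifi47), chr3:142530186-142530335 plus (Gbp7), chr11:48871421-48871570 minus (Irgm1), chr4:156200819-156200968 minus (Isg15) and chr12:26456453-26456602 minus (Rsad2).
Oas1a: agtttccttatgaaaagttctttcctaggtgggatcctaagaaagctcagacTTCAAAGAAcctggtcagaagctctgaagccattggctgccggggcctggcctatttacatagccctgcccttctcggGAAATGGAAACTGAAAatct
Oasl2: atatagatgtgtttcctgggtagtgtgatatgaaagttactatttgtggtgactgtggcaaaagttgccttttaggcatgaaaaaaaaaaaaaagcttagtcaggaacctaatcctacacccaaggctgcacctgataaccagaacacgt
Oas3: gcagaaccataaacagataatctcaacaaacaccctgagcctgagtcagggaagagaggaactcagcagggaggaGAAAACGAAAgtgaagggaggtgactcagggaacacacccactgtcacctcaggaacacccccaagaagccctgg
Ifi47: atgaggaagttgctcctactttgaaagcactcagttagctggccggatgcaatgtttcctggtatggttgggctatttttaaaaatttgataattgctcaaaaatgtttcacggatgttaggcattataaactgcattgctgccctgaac
Gbp7: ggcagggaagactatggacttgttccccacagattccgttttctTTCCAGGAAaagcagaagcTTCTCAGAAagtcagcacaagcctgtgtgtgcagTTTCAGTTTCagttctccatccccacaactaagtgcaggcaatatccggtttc
Irgm1: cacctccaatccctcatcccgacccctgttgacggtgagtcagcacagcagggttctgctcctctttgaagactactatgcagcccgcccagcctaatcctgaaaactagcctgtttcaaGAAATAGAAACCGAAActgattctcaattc
Isg15: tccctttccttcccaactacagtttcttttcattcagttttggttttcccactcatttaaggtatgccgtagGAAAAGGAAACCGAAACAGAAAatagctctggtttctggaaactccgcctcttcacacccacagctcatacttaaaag
Rsad2: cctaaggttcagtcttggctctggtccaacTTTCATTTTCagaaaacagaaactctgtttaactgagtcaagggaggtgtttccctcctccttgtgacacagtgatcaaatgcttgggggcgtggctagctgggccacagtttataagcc

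Oas1a, Oas3, Gbp7, Irgm1, Isg15 and Rsad2 held the response element letters in the bases shown, Oas1a and Gbp7 held those of the gamma-activated site as well, and Oasl2 and Ifi47 held neither. Windows of 250 bases before to 50 bases after the start were searched for all genes. Of the 35 measured genes, 26 had an entry, and 17 of them (65.4%) held the response element letters, against 3.44% of the 32851 windows in the table. The letters of the gamma-activated site were in 8 of the 26 (30.8%), against 8.30% of all windows. The 26 genes had 29 windows, and a gene counted when any of its windows matched. The share of all windows counts each window singly, so the units differ. Among GTPases 5 of 6 held the first and 3 of 6 the second, and among Ifit and Oas genes 4 of 7 and 2 of 7. A match describes the letters in a window and does not show that a factor binds there.

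Most of the genes were higher in LSK than in LK. Of the 34 with at least 20 UMIs over both libraries, 27 reached 2-fold in favour of LSK, none was 2-fold lower, and 7 lay within 2-fold (Stat2, Isg15, Ifi27, Ifi47, Oasl1, Ifi35 and Bst2). The same fold was passed upwards by 19.9% and downwards by 3.73% of the 13016 genes with that many UMIs. The median log2 ratio of the 34 genes was 1.45, and that of all genes was 0.34. Against TBM the order changed with the gene: 3 of 35 were 2-fold higher in LK than TBM (27.3% of all genes) and 15 were 2-fold lower (16.8% of all genes), with a median log2 ratio of -0.73 beside 0.37 for all genes. Between LSK and TBM, 11 of 35 were 2-fold higher in LSK (36.9% of all genes) and 6 lower (13.1%), and the median of 0.70 was close to the 0.67 of all genes. With the libraries scaled by median-of-ratios size factors, the median of all genes moved to 0.06, -0.03 and -0.00 in these comparisons. LSK over TBM became 5 higher and 10 lower, but the share of all genes was not counted on that scale. These 2 counts therefore cannot be set against a background. That scaling lowered each LSK to LK ratio by the same amount, so Irf9, Oas1a, Igtp, Dhx58 and Ifitm3 fell within 2-fold, at 0.79 to 0.96, and Bst2 (-0.21) and Ifi35 (-0.14) changed sign. The 3 comparisons share libraries, so they are not independent of each other.

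**Figure D1:**
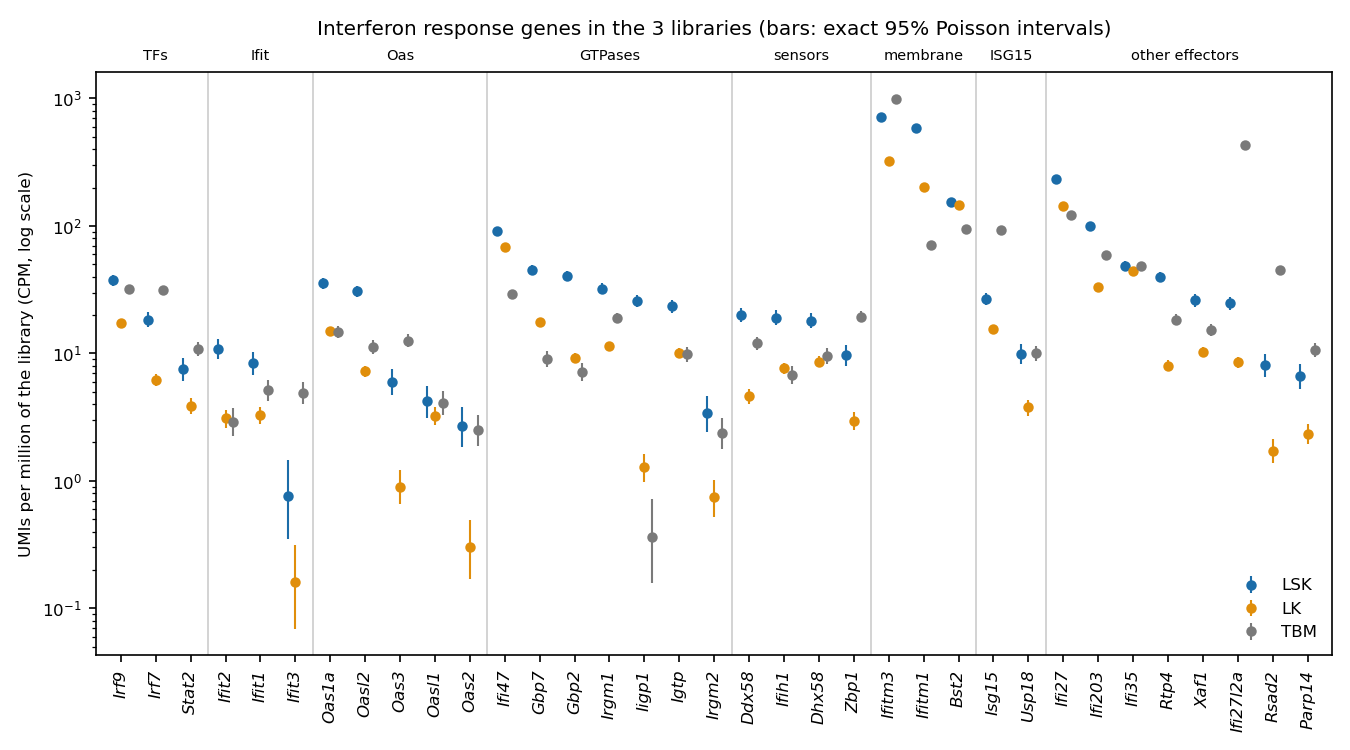
Level of each of the 35 genes in LSK (blue), LK (orange) and TBM (grey), as CPM on a log axis, grouped by role and ordered within a role by the LSK level; vertical lines are exact 95% Poisson intervals. LSK lies above LK for every gene on this scale, by as little as 0.07 (Bst2, -0.21 with size factors, as Ifi35 at -0.14) and as much as 4.33 (Iigp1) in log2 units, while grey TBM points lie highest for Ifi27l2a, Isg15, Rsad2 and Ifitm3, among others.

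The transcription factors of the response were lower in LK than in both other libraries. Irf9, the DNA-binding part of the type I complex, had 37.4 CPM in LSK cells, 17.4 in LK cells and 32.1 in TBM cells. Irf7, which amplifies interferon production, stood at 18.4, 6.21 and 31.5 CPM, so LSK was above LK by a log2 ratio of 1.57 (interval 1.31 to 1.82) and TBM above both. Stat2, the partner of Irf9 in that complex, stood at 7.52, 3.86 and 10.8 CPM, and its LSK to LK log2 ratio of 0.96 fell just short of 2-fold.

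The Ifit genes, whose proteins bind viral RNA, were sparse everywhere. Again in the order LSK, LK and TBM, Ifit1 (chromosome 19) had 8.36, 3.28 and 5.15 CPM and Ifit2 had 10.8, 3.08 and 2.91 CPM. Ifit3 had 9 UMIs in LSK and 8 in LK but 108 in TBM, too few over LSK and LK to be counted there; its near copy Ifit3b makes its count uncertain. On this scale Ifit1 and Ifit2 were therefore highest in LSK, and Ifit3 was highest in TBM. With size factors, Ifit1 was about level between LSK and TBM.

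The Oas genes, which make or resemble the synthetases that switch on RNase L, lie on chromosome 5 and did not move as a block. LSK had 35.4 CPM of Oas1a, LK 14.98 and TBM 14.7, and Oasl2 stood at 30.6, 7.21 and 11.2 CPM in that order. Oas3 was higher in TBM, at 5.998, 0.901 and 12.6 CPM, a log2 ratio of LSK over LK of 2.73 (2.18 to 3.31). Oas2 was rare, with 32, 15 and 55 UMIs. Oasl1, which restrains Irf7, stood at 4.22, 3.24 and 4.10 CPM, and the interval of each of its 3 ratios held 0. So Oas1a and Oasl2 were highest in LSK, Oas3 was highest in TBM, and Oasl1 did not differ between libraries beyond counting error on this scale. Oas1a has close copies (such as Oas1g) between which reads could be split.

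Of the 7 GTPases, 6 were 2-fold or more above LK in LSK (19.9% of all genes were), and 5 were so above TBM (36.9% of all genes). Iigp1, a GTPase that breaks open pathogen vacuoles, had 305 UMIs in LSK, 64 in LK and 8 in TBM, or 25.8, 1.28 and 0.364 CPM. Its LSK to LK log2 ratio of 4.33 (3.94 to 4.74) was the largest of the 34 genes, and its 3 levels were ordered LSK, LK, TBM with no overlap of their intervals. Gbp2 (GRCm38 chr3:142620602-142638008, plus strand) stood at 40.4, 9.23 and 7.15 CPM, a log2 ratio of LSK over LK of 2.13 (1.94 to 2.32). Its neighbour Gbp7 (chr3:142530342-142550149) stood at 45.5, 17.5 and 9.02 CPM. Both guanylate-binding genes were thus ordered LSK, LK, TBM as well, though with size factors the LK to TBM log2 ratio of Gbp2 was -0.02. Irgm1, a regulator that keeps the other GTPases inactive on the cell's own membranes, stood at 32.2, 11.4 and 18.9 CPM, and Igtp at 23.3, 10.1 and 9.88 CPM. Irgm2 had 40, 37 and 52 UMIs. Ifi47 had the most UMIs of the GTPases in all 3 libraries and differed least between LSK and LK, at 91.7 and 68.6 CPM against 29.2 in TBM. Exons of Igtp and Irgm2 share 162 bases and those of Ifi47 and Olfr56 share 111 bases on the same strand, so reads there cannot be told apart.

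All 4 sensors of foreign nucleic acid had 2-fold or more of their LK level in LSK (19.9% of all genes did). Dhx58 did not with size factors, at a log2 ratio of 0.79. In LSK, LK and TBM, Ddx58 (RIG-I) had 20.1, 4.61 and 11.98 CPM, Ifih1 (MDA5) at 19.1, 7.63 and 6.74 CPM, and Dhx58 (LGP2), which tunes both, at 18.1, 8.63 and 9.56 CPM. Zbp1, which senses Z-form nucleic acid and can trigger cell death, was highest in TBM, at 9.63, 2.96 and 19.4 CPM.

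Ifitm1 and Ifitm3 are membrane restriction factors that block the entry of viruses, and Ifitm3 had the most UMIs of the set in all 3 libraries. LSK had 721 CPM of Ifitm3, LK 326 and TBM 986. Ifitm1 stood at 584, 201 and 70.3 CPM. LSK was therefore above LK for both (log2 ratios 1.15 and 1.54), and TBM was the highest library for Ifitm3 and the lowest for Ifitm1. Bst2 (tetherin), which holds budding virus on the cell surface, stood at 153, 146 and 95.2 CPM.

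Isg15, a ubiquitin-like protein, had 26.8 CPM in LSK cells, 15.5 in LK cells and 92.5 in TBM cells. Usp18, which removes Isg15 from proteins and dampens the type I receptor, stood at 9.97, 3.76 and 9.97 CPM. Rsad2 (viperin), an antiviral enzyme, stood at 8.11, 1.72 and 45.2 CPM, and Ifi27l2a at 24.8, 8.51 and 430 CPM, a log2 ratio of LK over TBM of -5.66 (-5.80 to -5.52). For Isg15, Rsad2 and Ifi27l2a, TBM was far above both progenitor libraries. Rtp4, a transporter protein, stood at 39.8, 8.01 and 18.4 CPM, Xaf1, which promotes cell death, at 26.1, 10.3 and 15.3 CPM, and the nuclear protein gene Ifi203 at 99.5, 33.0 and 59.5 CPM. Parp14, an ADP-ribosyltransferase, stood at 6.67, 2.34 and 10.7 CPM. These 4 genes were lowest in LK. Ifi27 stood at 232, 143 and 121 CPM, and Ifi35 at 48.7, 44.3 and 48.5 CPM, the flattest profile of the set.

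Whether many or few cells carried a gene was read after each cell had been thinned at random to 2000 UMIs. This kept 1067 LSK, 3452 LK and 2929 TBM cells and left out 0, 9 and 1288 shallower cells. The loss in TBM was uneven by class, with 190 of 599 B cell-like cells kept but 386 of 390 monocyte-like cells. Thinned TBM values therefore do not stand for all TBM cells. At that depth 7 of the 35 genes had a UMI in at least 10% of LSK cells, 5 in LK and 5 in TBM, against 24, 17 and 10 without thinning. Ifitm3 was seen in 72.9% of LSK cells (99.1% unthinned), where the same UMIs spread at random would reach 79.9%. It was seen in 51.4% of TBM cells (57.0% unthinned), where random spread would reach 91.1%. Ifitm3 was thus near-universal in LSK and uneven in TBM. In the B cell-like class of TBM, where its level was low, it had a UMI in 10.0% of cells at a median of 1851 UMIs.

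In thinned LSK cells Ifi47 and Ifi203, given as examples, were spread close to what counting alone would give. Thinned counts of a single gene are sparse, which by itself brings such values near random spread. They therefore do not show that the level was even across cells. Ifi47 had a UMI in 15.6% of thinned LSK cells (57.8% unthinned) and random spread gave 15.6%; Ifi203 had 18.4% (60.7% unthinned) against 19.3%. The Fano factor, the variance of the UMIs per cell over their mean, which is 1 for random spread, was 0.997 for Ifi47 and 1.09 for Ifi203. Less evenly spread in LSK were Ifitm1, with 2.69 and 63.4% of cells (93.5% unthinned) against 78.0%, and Iigp1, with 1.54 and 5.62% (17.7% unthinned) against 6.79%. Summed genes in LSK were also above 1, at 2.82 for all 35. The factor was 1.71 without Ifitm1, Ifitm3 and Ifi27l2a, and 1.34 for the GTPases.

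In TBM the UMIs of several genes were gathered in part of the cells. Ifitm1 had a Fano factor of 14.1 and a UMI in 4.10% of thinned cells (8.80% unthinned), where random spread gave 15.2%. Ifi27l2a had 6.70 and 29.2% (40.1% unthinned) against 66.0%, and Isg15 had 5.97 and 9.08% (12.7% unthinned) against 18.6%. Bst2 had 4.96 and 10.6% (17.9% unthinned) against 19.2%, and Rsad2 had 2.40 and 5.46% (7.42% unthinned) against 8.99%. These 5 genes and Ifitm3, at 7.35, had the highest Fano factors in TBM, followed by Ifit3 (2.30) and Ifit1 (2.11); in the B cell-like class Isg15 had a UMI in 2.84% and Rsad2 in 0.668% of cells, both unthinned.

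The sum of the 35 genes in each cell differed in the same way. Per 2000 UMIs the mean sum was 5.63 in LSK, 2.71 in LK and 5.43 in TBM, and the median was 5, 2 and 3. At least 1 UMI of the set was seen in 97.2%, 85.3% and 85.3% of cells. The 10% of cells with the highest sums held 25.3% of the set's UMIs in LSK, 32.5% in LK and 45.1% in TBM, where random spread would give 17.96%, 21.7% and 18.2%. Among cells of at least 2000 UMIs, LSK and TBM thus had close means, but in TBM a smaller part of the cells held them. The highest sums were 37, 30 and 81. Without Ifitm1, Ifitm3 and Ifi27l2a the shares were 27.8%, 32.5% and 46.1%, where random spread would give 22.7%, 27.3% and 25.3%.

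**Figure D2:**
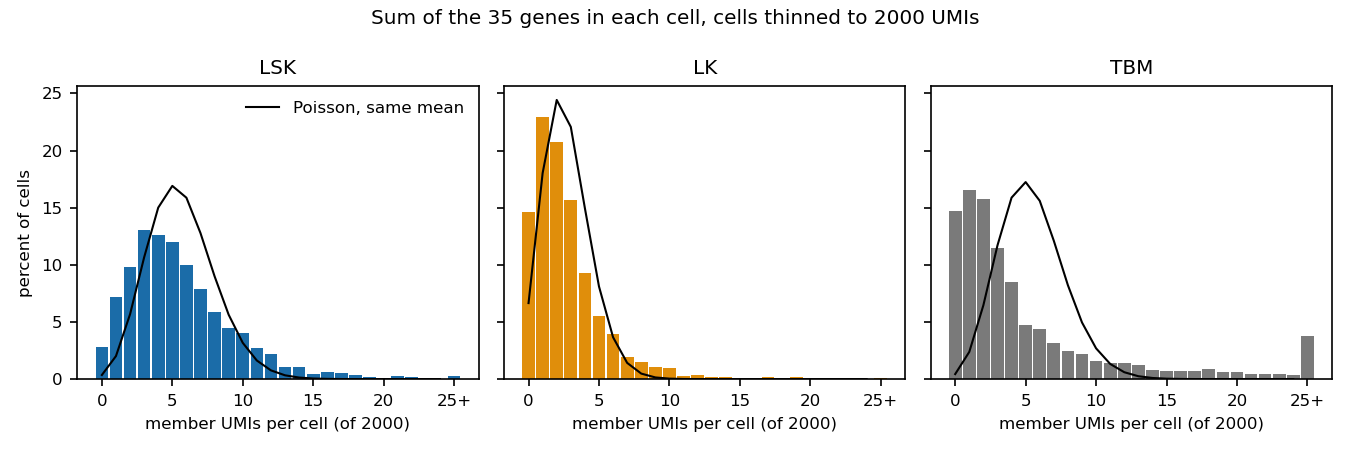
Percent of cells (vertical axis) with each summed number of UMIs of the 35 genes (horizontal axis) among 2000 UMIs drawn from the cell, for LSK, LK and TBM; the black line is a Poisson distribution of the same mean and the last bar joins sums of 25 and over. The LSK bars are highest at a sum of 3 around a median of 5, while TBM bars are highest at 1 and run into a long tail that reaches 81.

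To find cells with several type I response genes at once, 12 core genes were used (Ifit1, Ifit2, Ifit3, Isg15, Usp18, Rsad2, Oas1a, Oas2, Oas3, Oasl1, Oasl2 and Irf7), and a cell counted when 3 or more different core genes had a UMI among its 2000. There were 13 such cells of 1067 in LSK (1.22%, interval 0.650 to 2.07%), 10 of 3452 in LK (0.290%, 0.139 to 0.532%) and 76 of 2929 in TBM (2.59%, 2.05 to 3.24%). Without thinning the shares were 18.7%, 4.65% and 6.31%, so the order of LSK and TBM depended on depth. The most core genes in a cell were 6 (LSK), 4 (LK) and 10 (TBM). Cells with 3 or more held 13.9%, 8.84% and 36.9% of the core UMIs.

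These cells also had more of the genes that were not used to find them. The 20 other members, with Ifitm1, Ifitm3 and Ifi27l2a left out, summed to 2116 CPM in the 13 LSK cells and 967 CPM in the other LSK cells. The values were 1856 and 548 CPM in LK, and 1791 and 488 CPM in TBM. The GTPases alone stood at 497 against 260 CPM in LSK, 436 against 118 in LK and 380 against 68.0 in TBM. In each library the intervals of the 2 groups of cells did not overlap. The median depth was 8610 against 9738 UMIs in LSK, 8325.5 against 13760.5 in LK and 5286 against 5421 in TBM; cells of different classes are mixed in these sums. Within a class the direction was the same: 2187 against 1103 CPM in stem-like LSK cells, 3474 against 734 in monocyte-like TBM cells and 881 against 271 in erythroblast-like TBM cells.

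In LSK 12 of the 13 cells with 3 or more core genes were in the stem and multipotent progenitor-like class. In TBM 32 were erythroblast-like, of 453 such cells (7.06%, 4.88 to 9.83%), and 25 were monocyte-like, of 386 (6.48%, 4.23 to 9.41%). A further 10 were neutrophil-like, of 1053, and 3 lay in a cluster of 63 thinned cells led by Apoc2, Gngt2 and Ear2. Classes were named from marker genes in clusters built without the interferon genes, and a cluster without a clear name is given by its leading genes.

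The 2 kinds of TBM cell reached the count through different genes. Among the 32 erythroblast-like cells Isg15 was seen in 31, Rsad2 in 31, Irf7 in 18, Usp18 in 15, Ifit1 in 6, Oas3 in 6 and Oasl1 in 2, and none had a UMI of Oas1a, Oasl2, Ifit2, Ifit3 or Oas2. Among the 25 monocyte-like cells Irf7 was seen in 21, Oas1a in 16, Isg15 in 15, Oasl2 in 15, Ifit3 in 14, Usp18 in 8 and Rsad2 in 6. When Isg15 and Rsad2 were left out of the core, a choice made after seeing these values, 2 of 453 erythroblast-like cells remained (0.442%, 0.0535 to 1.59%) and 20 of 386 monocyte-like cells (5.18%, 3.19 to 7.89%). The totals were then 8 cells in LSK (0.750%), 3 in LK (0.0869%) and 30 in TBM (1.024%).

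**Figure D3:**
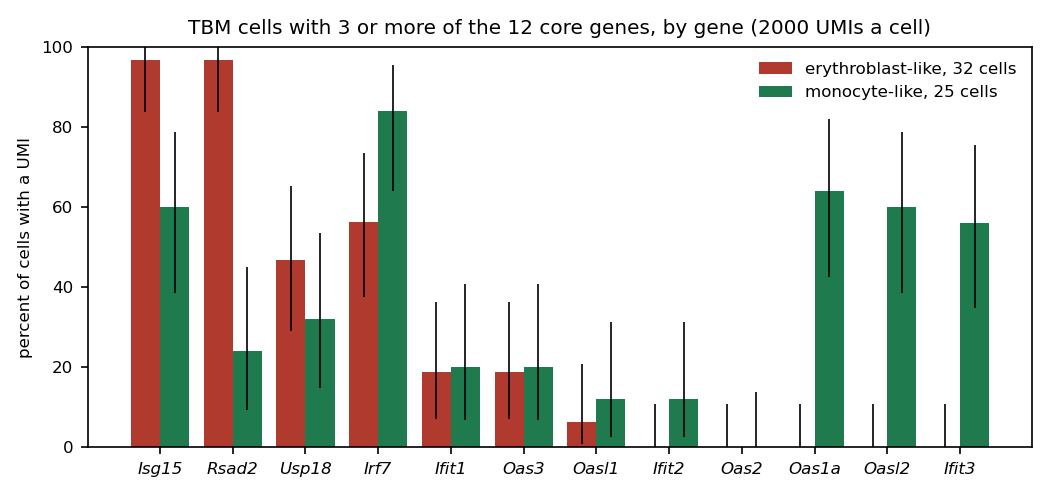
Percent of cells with a UMI of each core gene (vertical axis) among TBM cells with 3 or more core genes at 2000 UMIs, for 32 erythroblast-like (red) and 25 monocyte-like cells (green); lines are exact 95% Clopper-Pearson intervals. Isg15 and Rsad2 were seen in 31 of the 32 red cells each, and Oas1a, Oasl2 and Ifit3 in none of them.

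Isg15 and Rsad2 in erythroblast-like cells were not limited to those 32 cells. Of all 456 such cells, 222 (48.7%) had a UMI of Isg15 and 211 (46.3%) a UMI of Rsad2, at a median of 7241 UMIs and without thinning. The class held 72.6% of the Isg15 and 85.1% of the Rsad2 UMIs of TBM, with 10.8% of its cells and 16.9% of its UMIs. Isg15 stood at 398 CPM there and Rsad2 at 228 CPM, beside 58.7 and 12.2 CPM in monocyte-like cells. Irf7 stood at 51.3 and Usp18 at 27.0 CPM, but Ifi203 at 0.810, Oas1a at 1.62 and Gbp2 at 0 UMIs, which allows up to 0.810 CPM. So part of the set was high in this class and part was nearly absent.

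Both erythroblast-like clusters showed it. In the cluster with Rhd and Hemgn among its leading genes (332 cells) Isg15 stood at 366 CPM and Rsad2 at 164 CPM, and in the cluster led by Tmcc2 and the globin genes (124 cells) at 519 and 470 CPM, with Ifit1 at 2.39 and 50.2 CPM. Per cell, Isg15 had 3.23 and Hbb-bs 1638 UMIs in the first cluster, and 0.0301 and 2.64 UMIs in B cell-like cells of the same library. Erythroid progenitor-like LK cells, with 45.2 CPM of Isg15 and 2.28 CPM of Rsad2, were lower for both.

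Summed over all members, monocyte-like cells had the highest level of any class, 6730 CPM (6637 to 6824). Without Ifitm1, Ifitm3 and Ifi27l2a they stood at 1166 CPM and were not the highest. A TBM cluster led by Cd209a, Cd7 and Siglech then had 2635 CPM. Most of this was Bst2, with 11.7 of the 17.9 UMIs a cell. Its Ifit and Oas genes summed to 47.2 CPM. A stem-like cluster led by Sult1a1, Mllt3 and Procr had 1481 CPM in LSK and 1871 CPM (1685 to 2073) in its 38 LK cells. Monocyte-like cells were 9.25% of TBM cells with 13.5% of its UMIs. They held 54.4% of the Ifi27l2a, 52.4% of the Ifitm3, 64.8% of the Ifit3, 47.5% of the Zbp1 and 47.0% of the Oasl2 UMIs. Ifi27l2a was among the genes that lead this cluster, at 1733 CPM. Within the class the genes were uneven. The 25 cells with 3 or more core genes had 671 CPM of GTPases and 5204 CPM of Ifi27l2a, against 111 and 1573 CPM in the other 361.

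Neutrophil-like cells held 70.9% of the Oas2 and 50.4% of the Oas3 UMIs of TBM with 32.9% of all UMIs. The 3 clusters of this class differed. Their leading genes were Chil3, Fcnb and Ngp in the first (263 cells), Ly6g, Mmp8 and Ltf in the second (728 cells), and Retnlg, Ccl6 and Cxcr2 in the third (529 cells), genes known from early, middle and late neutrophil maturation. Oas3 stood at 1.69, 24.1 and 57.0 CPM in them, Ifitm1 at 5.07, 28.0 and 474 CPM, Ifi27l2a at 28.4, 160 and 733 CPM, and Rtp4 at 1.35, 11.8 and 122 CPM. Each of these genes, given as examples, was higher at each step, with no overlap of intervals between clusters. Not every member was: Bst2 was not. It is given in UMIs per cell, not CPM, at 0.183, 0.0330 and 0.0284 in the same order. Depth fell over these clusters too, so this fall cannot be set against the CPM values above. The summed Ifit and Oas genes stood at 13.5, 56.1 and 191 CPM. The median depth fell from 10928 to 3962.5 and 1574 UMIs in the same order, and its part in the result was not tested. Counted in UMIs per cell, Ifitm1 stood at 0.0570, 0.128 and 0.849 and Oas3 at 0.0190, 0.110 and 0.102, so the last step was seen for Ifitm1 on both scales and for Oas3 only in CPM.

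A few small classes carried single genes. Basophil-like cells, 0.877% of TBM cells with 0.896% of its UMIs, held 46.3% of its Ifitm1 UMIs, at 3634 CPM, and those of LK stood at 2004 CPM. A cluster led by Cd209a, Cd7 and Siglech (75 cells) held 42.1% of the Bst2 UMIs of TBM. Split after seeing this, its 37 cells with a UMI of Siglech, a gene of plasmacytoid dendritic cells, had 3628 CPM of Bst2 and 60.7 CPM of Ifitm3. The other 38 had 346 CPM of Bst2 and 3203 CPM of Ifitm3.

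**Figure D4:**
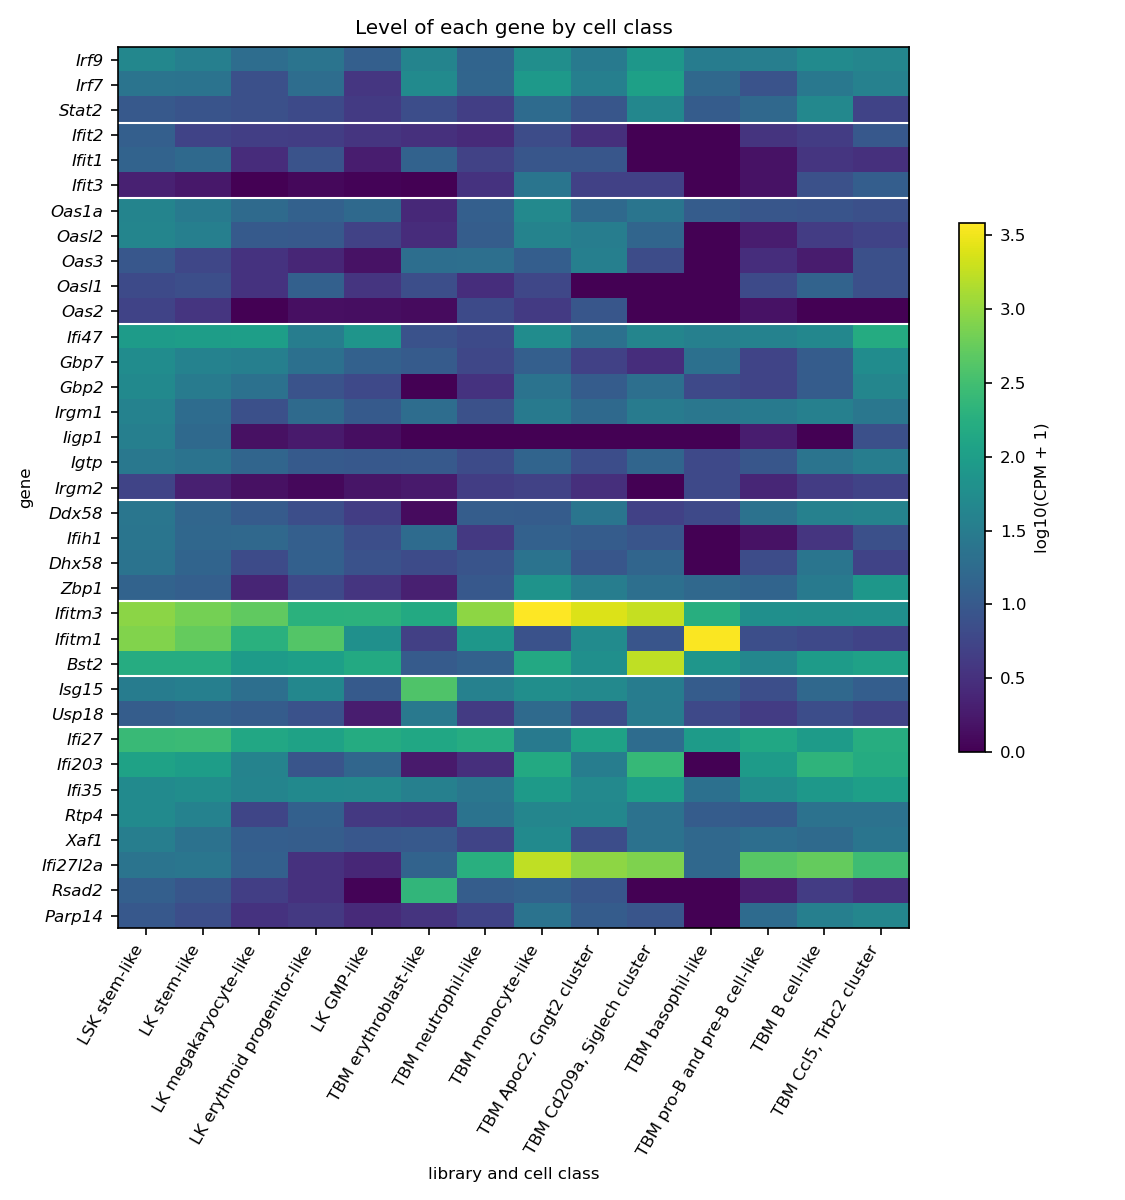
Level of each gene (rows, grouped by role with white lines) in 14 cell classes of the 3 libraries (columns), coloured by log10 of CPM + 1. Ifitm3 and Ifi27l2a are brightest in TBM monocyte-like cells (3825 and 1733 CPM), Ifitm1 in basophil-like cells, Bst2 in the Cd209a and Siglech cluster, and Isg15 and Rsad2 in erythroblast-like cells.

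The GTPases and the Ifit and Oas genes divided the libraries differently. Summed over the 7 GTPases, LSK had 262 CPM, LK 119 and TBM 76.9, and over the 8 Ifit and Oas genes 98.8, 33.2 and 58.1 CPM. The log2 ratio of LK over TBM was 0.63 (0.55 to 0.71) for the GTPases and -0.81 (-0.92 to -0.70) for the others. The 2 sums thus ordered LK and TBM in opposite ways, but the GTPases did not do so gene by gene. Of the 7, 2 were 2-fold higher in LK than TBM (27.3% of all genes) and 1 was lower (16.8%). Ifi47 was 1 of the 2. The median log2 ratio of the 7 was 0.37, beside 0.37 for all genes. The ratio of GTPase to Ifit and Oas UMIs was 2.65 (2.48 to 2.84) in LSK, 3.58 (3.39 to 3.79) in LK and 1.32 (1.23 to 1.42) in TBM. Ifi47 alone made up 34.99%, 57.8% and 37.95% of the GTPase UMIs, and without it the ratios were 1.72, 1.51 and 0.821. The place of LK above LSK therefore came with Ifi47.

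By class the ratio ran from 0.501 to 14.8. It was below 1 in neutrophil-like cells (0.501, interval 0.422 to 0.594) and in the Apoc2-led cluster (0.558, 0.341 to 0.895), and near 1 in monocyte-like cells (0.941, 0.819 to 1.08). Erythroblast-like cells had 1.03 (0.825 to 1.29) as a class, but their 2 clusters lay on opposite sides, at 1.56 (1.20 to 2.04) in the Rhd cluster and 0.273 (0.152 to 0.465) in the Tmcc2 cluster. The neutrophil-like clusters differed too, at 1.40 (0.917 to 2.16) in the one led by Chil3, 0.495 (0.381 to 0.638) in the one led by Ly6g and 0.309 (0.225 to 0.420) in the one led by Retnlg. The split by cluster was made after the class values had been seen. Lymphoid cells lay on the side of the GTPases. The ratio was 3.36 (2.39 to 4.82) in B cell-like and 4.19 (2.98 to 6.02) in pro-B and pre-B cell-like cells, whose clusters ran from 2.37 to 6. It was 7.24 (4.57 to 12.03) in a cluster led by Ccl5, Trbc2 and Gzma, genes of T and natural killer cells. That cluster had 325 CPM of GTPases, the highest of the TBM classes, with Ifi47 at 160 CPM. Split after seeing this, its 64 cells with Cd3 genes and no natural killer marker had 365 CPM of GTPases, and its 29 cells with natural killer markers and no Cd3 gene had 360 CPM. Ifi27l2a, by contrast, stood at 538 CPM in the first and at 10.3 CPM (1 UMI) in the second. The highest ratio, 14.8 in LK basophil-like cells, rests on 4 Ifit and Oas UMIs (interval 5.47 to 55.9).

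**Figure D5:**
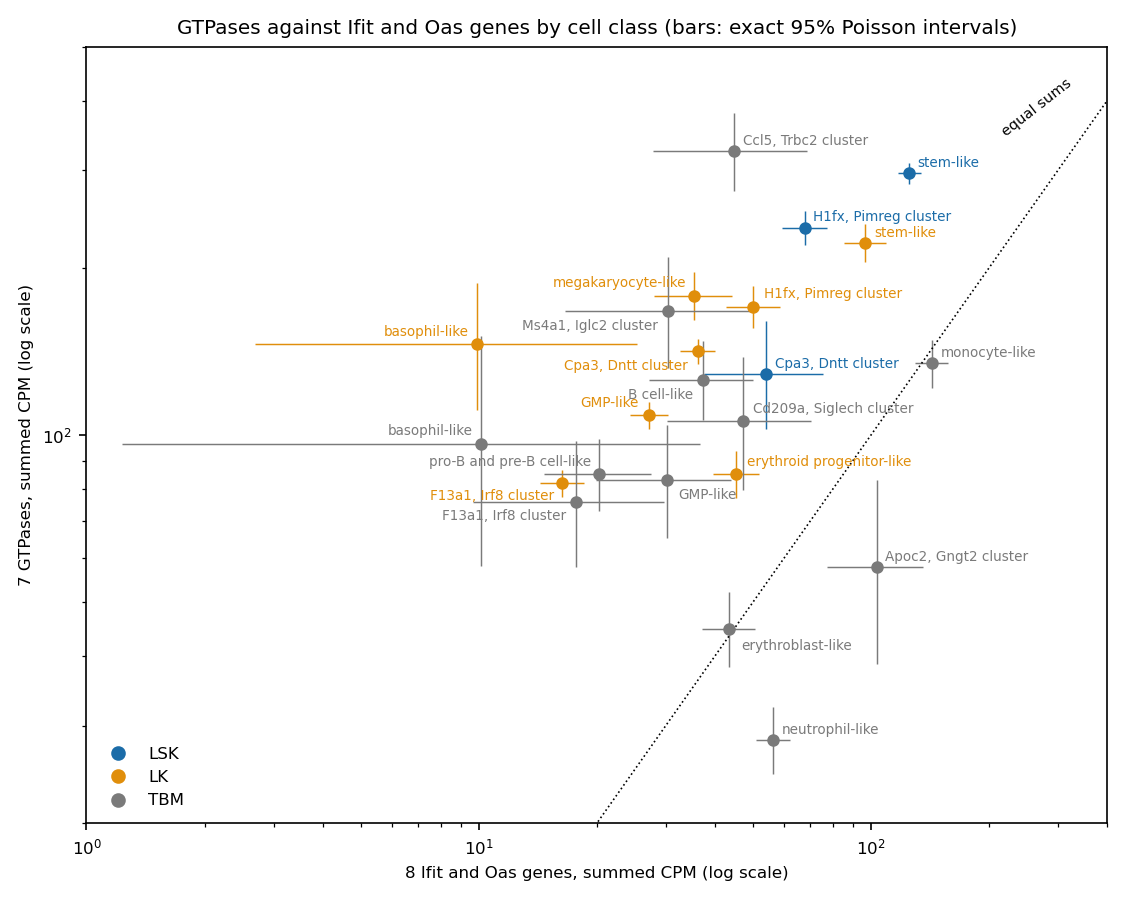
Summed level of the 7 GTPases (vertical) against the 8 Ifit and Oas genes (horizontal) in each class of at least 30 cells, both in CPM on log axes, for LSK (blue), LK (orange) and TBM (grey), with exact 95% Poisson intervals; the dotted line marks equal sums. As whole classes, neutrophil-like cells and the Apoc2 and Gngt2 cluster lie below the line, monocyte-like and erythroblast-like cells on it, and the other classes above it. The erythroblast-like point joins clusters at ratios of 1.56 and 0.273, and the neutrophil-like point clusters at 1.40, 0.495 and 0.309.

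Single cells could be high in either family alone. An LSK cell of the Cd209a-led cluster had 49 GTPase UMIs among 9874, with 21 of Gbp2 and 14 of Iigp1, and no Ifit or Oas UMI. An LSK cell of a cluster led by H1fx, Pimreg and Nusap1, genes of dividing cells, had 39 GTPase UMIs (14 of Iigp1 and 12 of Igtp) and 2 Ifit and Oas UMIs among 14737. In the other direction, an LK cell of a cluster led by Cpa3, Dntt and Ccl9 had 16 UMIs of Ifit1 and 17 of Ifit and Oas genes in all, with 2 of GTPases, among 10484. A stem-like LSK cell had 22 Ifit and Oas and 10 GTPase UMIs among 12667, and an erythroid progenitor-like LK cell had 17 of each among 28367, with 23 of Irf7 and 27 of Isg15. The highest sum of all members was 233 UMIs, in a monocyte-like TBM cell of 6073 UMIs. These cells were picked for their sums and describe the extremes.

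Over thinned cells the 2 sums were weakly related in the progenitors. Pearson's r across cells was 0.13 in 1067 LSK, 0.05 in 3452 LK and 0.28 in 2929 TBM cells. It is given as a description, since cells of a library share its depth and may share free RNA. The value of r was 0.48 in the 386 monocyte-like cells and 0.00 in the 453 erythroblast-like cells. Among the monocyte-like cells 33 (8.55%) had a UMI of both, and 4.79% would if the 2 were unrelated. Sparse counts keep such values low.

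Among LSK cells the summed GTPases and Ifitm1 were highest in cells with the stem cell marker Procr and no Flt3 or Dntt. The 227 cells with a UMI of Procr and none of Flt3 or Dntt had 65.1 CPM of Iigp1 (54.5 to 77.1). The level was 20.9 CPM in 168 cells with Procr and Flt3, 16.1 in 219 with Flt3 and not Dntt, 10.1 in 152 with Dntt, a lymphoid gene, and 20.8 in 301 with none of these. The summed GTPases stood at 399, 246, 211, 200 and 263 CPM in the same order, and the Ifit and Oas genes at 122, 96.4, 100.2, 100.1 and 83.6 CPM. Cells with Procr alone were highest for the summed GTPases with no overlap of intervals. Not every GTPase showed this. Ifi47 stood at 108 CPM (94.1 to 123) with Procr alone and 104 CPM (93.1 to 116) with none of the markers. The Ifit and Oas interval of cells with Procr alone (108 to 138 CPM) overlapped that of the cells with Flt3 and not Dntt (88.6 to 113). It did not overlap that of the cells with none of the markers (74.0 to 94.2). The ratio of GTPase to Ifit and Oas UMIs was 3.26 (2.83 to 3.77) with Procr alone, 1.99 (1.67 to 2.39) with Dntt and 3.15 (2.75 to 3.62) with none of the markers. The median depth was 7690 UMIs with Procr alone and 11159.5 with Dntt, and its part in the result was not tested. Ifitm1 stood at 1112 CPM with Procr alone and 385 CPM with Dntt. Ifi27l2a ran the other way, at 11.7 and 66.7 CPM. Ly6a stood at 207 and 83.1 CPM in these cells.

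The 2 stem-like clusters differed as well. The cluster led by Sult1a1, Mllt3 and Procr, which also has Mecom and Ly6a among its 10 leading genes, had 235 LSK and 38 LK cells. The cluster led by Ctla2a, with Hlf and Flt3 among its leading genes, had 529 LSK and 330 LK cells. In LSK, Iigp1 stood at 77.7 CPM (65.3 to 91.8) in the first and 18.6 (15.03 to 22.7) in the second, and in LK at 91.8 CPM (54.4 to 145) and 10.1 (6.61 to 14.8). Gbp2 stood at 77.2 and 39.1 CPM in LSK and at 81.6 and 26.1 CPM in LK. Oas1a did not differ beyond counting error, at 36.0 and 41.8 CPM in LSK and 45.9 and 27.2 CPM in LK. Iigp1 and Gbp2 were thus higher in the Procr-led cluster in both libraries. The summed GTPases were 451 and 243 CPM in LSK and 505 and 200 CPM in LK. The summed Ifit and Oas genes were 142 (125 to 161) and 120 CPM (110 to 130) in LSK, with overlapping intervals, and 184 (129 to 254) and 90.3 CPM (79.0 to 103) in LK, without overlap. Oasl2 stood at 86.7 and 29.96 CPM in LK. The ratio of the 2 sums was 3.17 (2.75 to 3.67) and 2.03 (1.84 to 2.24) in LSK, and 2.75 (1.86 to 4.15) and 2.22 (1.90 to 2.60) in LK, so the clusters differed in it in LSK and could not be separated in LK.

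Compared within the same cluster, LSK and LK were closer than the whole libraries. In the Ctla2a-led cluster the median log2 ratio of the members was 0.33, beside 0.08 for all genes, and 2 of 33 members (Ifit2 and Irgm1) were 2-fold higher in LSK, where 4.87% of all genes were. In the Procr-led cluster, with 38 LK cells, counts under 3 UMIs were taken as 3, as in all such counts here. The median was then -0.37 beside -0.06, and of 30 members none was 2-fold higher (3.2% of all genes) and 4 were lower (3.03%). The 4 were Stat2, Ifit1, Zbp1 and Usp18, and only the interval of Zbp1 (-2.61 to -0.35) lay below 0. Taken as counted, Ifih1 (53 UMIs in LSK and 2 in LK), Ifit2 (20 and 1) and Oas3 (28 and 0) would be 2-fold higher, each with an interval of the log2 ratio that held 0. In the cluster of dividing cells (212 LSK and 241 LK cells) it was 0.46 beside 0.09, with 3 of 30 higher (Ifit2, Iigp1 and Ddx58) where 5.93% of all genes were. There, LSK cells had 15.4 CPM of Iigp1 and LK cells 1.62. In the Cpa3-led cluster (33 LSK and 751 LK cells) the median was 0.20 beside 0.11. Of 30 members there, 1 was higher (9.84% of all genes) and 1 lower (2.17%). In the megakaryocyte lineage-like cluster (27 LSK and 290 LK cells) the median was 0.34 beside 0.05. Of 19 members there, 2 were higher (5.18%) and none lower (2.94%). These comparisons were added after the whole libraries had been compared. In whole libraries, more cells of a type and more RNA per cell cannot be told apart: the stem-like class was 71.6% of LSK and 10.6% of LK cells, and within LK it held 68.8% of the Iigp1 UMIs with 5.54% of all UMIs.

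LK cells with a UMI of Ly6a, a gate gene that is itself known to be induced by interferon, had more of the set than other LK cells. The 271 such cells had 1517 CPM of all members, against 1115 CPM in the other 3190, with Iigp1 at 6.18 and 0.869 CPM. GTPases stood at 140 and 117 CPM, and Ifit and Oas genes at 46.1 and 32.1 CPM. A split by Ly6a can pick cells by gate or by response, and these cannot be told apart here. In LK, Ly6a itself stood at 125 CPM in the 10 cells with 3 or more core genes and 7.56 CPM in the others.

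Other genes of the interferon pathway were counted from a list of 108 symbols, of which 104 had a row and 82 had 20 UMIs over LSK and LK. Of these, 37 reached 2-fold in favour of LSK (19.9% of all genes did) and 5 in favour of LK (3.73%): 1 and 1 of 8 receptors and kinases, 7 and 1 of 18 transducers and regulators, and 29 and 3 of 56 other induced genes. The receptors and kinases were near the share of all genes. In LSK, LK and TBM, Ifnar1 had 19.1, 13.1 and 21.4 CPM, Ifnar2 at 73.2, 70.1 and 65.5, and Ifngr2 at 23.1, 27.7 and 60.8. Ifngr1, of the gamma receptor, was lowest in LSK, at 90.4, 220.3 and 120.2 CPM.

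Irf1, a transcription factor and target of interferon gamma, stood at 50.1, 28.5 and 19.9 CPM (log2 LSK over LK 0.82). The largest LSK to LK ratios were those of Tgtp1 and Tgtp2, near-identical GTPase genes whose reads may be split, with 68 and 85 UMIs in LSK, 13 and 29 in LK and 4 and 8 in TBM, and of Slfn5 (log2 2.95). The lowest ratios were those of the nuclear protein gene Ifi209 (-3.10), the myeloid factor Irf8 (-2.46), at 47.4 CPM in LSK and 260.3 in LK, and the chemokine gene Cxcl10 (-2.23), at 7.35, 34.4 and 2.004 CPM. The interferon genes themselves were nearly absent. Of 11 with a row, 9 had no UMI in any library, Ifnb1 had 9 UMIs in 3 LK cells, 7 of them in 1 cell, and Ifng had 1 UMI in LK and 13 in TBM.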

How the data were processed

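The authors deposited unnormalised UMI counts (genes by barcodes) from 10x Single Cell 3' v2 libraries, made with Cell Ranger 4.0.0 on mm10, per the submitters' processing notes; the annotation release is not given in the sources used here. The members and all lists were chosen with earlier results of these data known. Barcodes under 200 genes or over 10% mitochondrial UMIs were dropped and Scrublet (scanpy 1.11.5) doublets removed: from 1091, 3560 and 4317 barcodes in LSK, LK and TBM (1070, 3441 and 3984 cells stated in the labels), 1067, 3461 and 4217 remained. Scrublet marked 0.280%, 0.0866% and 1.70%, so doublets may remain. Counts were summed per library or class and divided by total UMIs (CPM, computed here from the deposited counts). Intervals are exact 95% Poisson, Clopper-Pearson or conditional binomial intervals. A gene counted as 2-fold apart needed 20 UMIs over both libraries; counts under 3 UMIs were taken as 3 in counting 2-fold differences, and 3 UMIs are the limit given for a count of 0. Cells were thinned to 2000 UMIs to compare shares. Clusters (Leiden, resolution 1, 30 principal components, 15 neighbours, 2000 variable genes, no interferon or gate genes) were named from marker lists; a difference from other annotations may come from these rebuilt names. The calculation of ratios and their intervals was checked on simulated counts. Values in each library are given for every member with 200 UMIs in all, and for the 3 below that (Ifit3, Oas2 and Irgm2); pathway genes named are the 3 with the largest log2 ratio in each direction having 50 UMIs, plus Ifnar1, Ifnar2, Ifngr1, Ifngr2 and Irf1 (another gene of this list is not reported here). Single cells, Siglech and T and NK splits, Isg15 and Rsad2 promoters and same-cluster comparisons were chosen after values were seen. Alternatives were size factors, equal weight per cell, other filters, thinning and resolutions. Mx2 was not analysed here.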

Additional observations from a re-analysis of the deposited data

How the results depend on the processing

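No paired analysis was possible because each group is 1 library. No alternative turned the direction of a value past 2-fold. With size factors the members' median log2 ratio was 1.17 between LSK and LK, -1.13 between LK and TBM, and 0.028 between LSK and TBM. In the last, 5 members were 2-fold higher and 10 lower, with no share of all genes counted on that scale. The scaling itself moved the median of all genes, by its construction. With equal weight for each cell the median was 1.24 for LSK over LK and -0.93 for LK over TBM; the cause was not tested. Without thinning, 24, 17 and 10 members reached 10% of LSK, LK and TBM cells, and 18.7%, 4.65% and 6.31% of cells had 3 or more core genes. At 1000 UMIs these shares were 0.187%, 0.0578% and 1.39%, and 3 members reached 10% of TBM cells, since fewer UMIs were read. The top 10% of cells then held 27.8% of the set in LSK and 35.02% in LK, and without Ifitm1, Ifitm3 and Ifi27l2a they held 27.8% in LSK and 46.1% in TBM. Without Isg15 and Rsad2 the core share was 0.0869% in LK and 1.024% in TBM. Without the 1% of cells with the most member UMIs, the GTPase to Ifit and Oas ratio of TBM was 1.45. At resolution 0.5, where clusters joined other cells, the members summed to 2764 CPM in stem-like LSK, 2246 in stem-like LK, 6385 in monocyte-like, 2234 in neutrophil-like and 1141 in erythroblast-like cells. Of 312 values for single members, all 104 from unfiltered barcodes stayed on their side of 2-fold, 97 of 104 did with equal weight per cell and 83 of 104 with size factors. With 1 library a group, spread between mice or sorts is not covered by any interval. Depth limits members near 1 CPM and any count of response genes in a single cell.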

Other observations

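Megakaryocyte lineage-like LK cells (290 cells) had 178 CPM of GTPases and 35.5 CPM of Ifit and Oas genes, a ratio of 5.03 (3.93 to 6.51), and granulocyte-monocyte progenitor-like LK cells (590 cells) had 109 and 27.2 CPM, a ratio of 3.99 (3.53 to 4.53). Erythroid progenitor-like LK cells (462 cells) had 85.2 and 45.4 CPM, and their ratio of 1.88 (1.59 to 2.22) did not overlap either; within them the ratio was 2.21 (1.83 to 2.68) in the larger cluster and 1.016 (0.702 to 1.47) in a cluster of 33 cells led by Mt2. Among the GTPases, Ifi47 differed between the granulocyte-monocyte (72.5 CPM) and erythroid (31.5 CPM) progenitor-like cells, while Irf7 stood at 2.71 and 18.2 CPM and Isg15 at 9.32 and 45.2 CPM. Ifitm1 stood at 61.2 and 417 CPM in the same order.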
